A study of Homo sapiens with 7 samples.

Results

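The comparison described here sets HSC-3 cells heated at 42 °C for 90 min and returned to 37 °C for 12 h against HSC-3 cells kept at 37 °C. It rests on 2 of the 7 arrays of the study, 1 array a side, chosen by their labels, and covers the 14973 genes (of 19775 with a probe set of their own) that reached the floor of 21.35 intensity units on any array. HSC-3 is an established line from a human squamous carcinoma of the tongue. The other 5 arrays hold cells collected at 0 and 6 h after 42 °C and at 0, 6 and 12 h after heating at 44 °C for 90 min. No further agent or genetic change is given in the labels, and all arrays are of this line alone. Nothing was repeated, so no difference below has a replicate check and no p-value is given; the number of arrays limits the precision. RNA came from whole cultures, so fewer cells in a given state and less RNA per cell cannot be told apart.

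Heat unfolds proteins, and cells answer through heat shock factor HSF1, which binds heat shock elements and switches on chaperone genes, then is shut off again as chaperones accumulate. A different arm, the integrated stress response, slows protein synthesis while favouring translation of ATF4, a transcription factor that acts on amino acid transport, amino acid synthesis and tRNA charging genes. ATF4 also acts on DDIT3, which encodes CHOP, and the products of TRIB3 and CHAC1 lie further downstream. In tumours of squamous epithelium these responses run beside keratin, matrix protease and cytokine programmes.

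A gene is said here to have risen or fallen if its intensity differed by at least 2-fold (1 log2 unit) as deposited, after quantile normalization of the 7 arrays and after a shift of each array to a common median. Values below the floor, the pooled median of all arrays, were raised to it, so a fold against such a value is a lower bound. By this rule 145 genes rose, 0.968% of those measured, and 204 fell, 1.36%, in all 2.33%. Control values lay below the floor for 44 of the risen genes, and the values after heat lay below it for 125 of the fallen genes. Among the 8905 bright genes, those reaching 4 times the floor on either array, 81 rose (0.91%) and 51 fell (0.573%). The direction of the balance depended on the scaling: 51.9% of the genes past 2-fold were higher as deposited, 53.4% with quantiles equalised and 30.9% with medians equalised.

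The arrays were close to each other in level. Median intensity over all probe sets was 22.4 for the control and 19.1 for the 42 °C, 12 h array, while probe sets that no array had below the floor were 0.16 log2 units higher on the heated array. Bright genes had a median difference of 0.22, with 5% of them below -0.40 and 5% above 0.75, and all measured genes had a median of 0.09. Among 3562 genes with at least 2 bright probe sets, the median SD between probe sets of a gene was 0.17 log2 units. The 7 measured squamous markers summed to 44328 units in the control and 46677 after heat; basal keratins KRT14 and KRT5 were at 11252 and 6011 units and then at 11946 and 7241. Other marker sums cover all listed genes with a probe set of their own, including those below the floor on every array. Fibroblast markers, 6 of them measured, summed to 301.7 and 323.9 units. Leukocyte markers, 4 measured, summed to 73.0 and 69.2, and endothelial markers, 2 measured, to 111.0 and 92.0. PTPRC, LYZ, PDGFRA, VWF and CDH5 were below the floor on all 7 arrays.

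**Figure D1:**
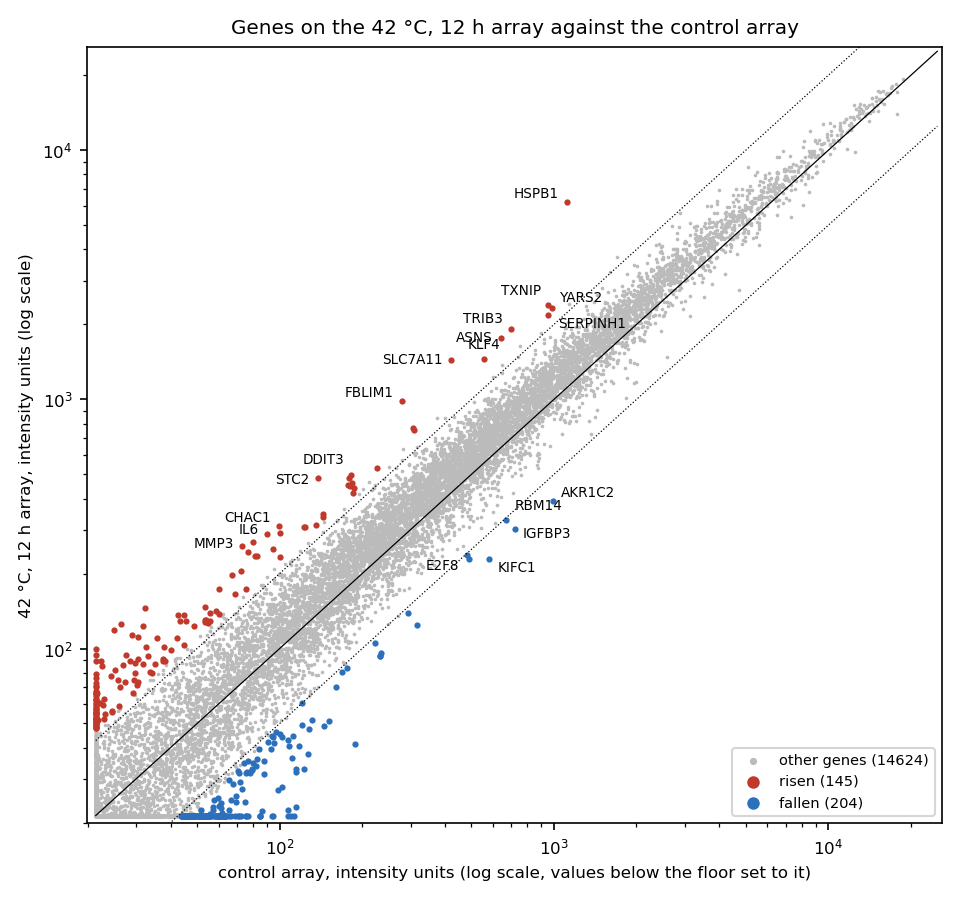
Intensity of each measured gene in the control (horizontal, log scale) and 12 h after 42 °C (vertical, log scale), 1 point a gene, values below the floor set to it. The solid line marks equality and the dotted lines 2-fold; the 145 risen genes are red, the 204 fallen genes blue, and most called genes lie at low intensity; among the 21 risen and 6 fallen genes reaching 341.7 units on either array, HSPB1, at 6176 units after heat, lies highest.

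The promoters of 6 genes are shown as a description of their sequence. CHAC1, ASNS and ATF3, which rose, hold the amino acid response motif. HSPB1, HSPA6 and HSPB8 hold a heat shock motif while differing in where they stood 12 h after heat. A link between a motif and a rise was not tested. Each is the 250 bases before the gene's most upstream start site in RefSeq (GRCh38.p14), 5′ to 3′ on the gene's strand. It lies outside the transcript that starts there. Any other start sites of these genes are not shown, and positions below are counted from this start. Capitals mark TGATGNAA on either strand in the first 3 genes, and GAANNTTC or TTCNNGAA, which read alike on both strands, in the last 3.

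CHAC1 (chr15:40953221-40953470, plus strand): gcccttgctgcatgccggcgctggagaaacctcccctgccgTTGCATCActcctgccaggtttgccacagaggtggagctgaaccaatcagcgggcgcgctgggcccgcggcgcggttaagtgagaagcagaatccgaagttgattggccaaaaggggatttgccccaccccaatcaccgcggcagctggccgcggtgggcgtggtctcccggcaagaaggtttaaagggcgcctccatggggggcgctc
ASNS (chr7:97872409-97872658, minus strand): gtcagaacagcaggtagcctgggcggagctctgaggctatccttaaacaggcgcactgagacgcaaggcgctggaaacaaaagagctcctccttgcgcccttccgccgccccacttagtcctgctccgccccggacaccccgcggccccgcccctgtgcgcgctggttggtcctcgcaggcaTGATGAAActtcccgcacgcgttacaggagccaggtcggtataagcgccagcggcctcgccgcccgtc
ATF3 (chr1:212565157-212565406, plus strand): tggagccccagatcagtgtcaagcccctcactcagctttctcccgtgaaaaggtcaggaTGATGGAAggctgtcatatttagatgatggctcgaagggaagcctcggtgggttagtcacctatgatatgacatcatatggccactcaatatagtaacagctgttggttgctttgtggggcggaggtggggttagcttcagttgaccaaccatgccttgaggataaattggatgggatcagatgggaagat
HSPB1 (chr7:76302423-76302672, plus strand): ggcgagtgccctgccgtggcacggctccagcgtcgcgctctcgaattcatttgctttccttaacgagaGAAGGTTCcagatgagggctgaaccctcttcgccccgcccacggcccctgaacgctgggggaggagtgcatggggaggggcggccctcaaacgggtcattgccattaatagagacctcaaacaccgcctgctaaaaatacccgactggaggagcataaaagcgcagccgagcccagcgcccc
HSPA6 (chr1:161524290-161524539, plus strand): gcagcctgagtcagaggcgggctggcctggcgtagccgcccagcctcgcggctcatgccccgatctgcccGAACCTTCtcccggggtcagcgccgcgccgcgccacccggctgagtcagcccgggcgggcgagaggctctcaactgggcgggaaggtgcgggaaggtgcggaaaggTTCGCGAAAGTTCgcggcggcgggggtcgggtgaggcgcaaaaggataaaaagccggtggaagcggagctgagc
HSPB8 (chr12:119178681-119178930, plus strand): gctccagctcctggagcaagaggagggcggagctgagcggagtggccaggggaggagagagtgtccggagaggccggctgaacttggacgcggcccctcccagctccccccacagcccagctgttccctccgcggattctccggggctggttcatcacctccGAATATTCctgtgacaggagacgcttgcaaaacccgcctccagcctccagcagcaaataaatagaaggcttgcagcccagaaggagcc

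CHAC1 carries the match TTGCATCA, on the reverse strand, 209 to 202 bases before its start, ASNS carries TGATGAAA 68 to 61 bases before it, and ATF3 carries TGATGGAA 191 to 184 bases before it. In ASNS the last letters of the match overlap a GAANNTTC match that is not marked. Of 35116 windows of this length in the table, 3.14% hold TGATGNAA, as do 3.89% of the 27305 genes with a window. Of the 10 risen genes in the stress response, transporter and amino acid synthesis lists below, 9 have a window, and ASNS, ATF3 and CHAC1 are the 3 with a match. CEBPG, FGF21, JDP2, SLC1A5, BCAT1 and MTHFD1L of the same lists, none of which passed the rule, have one too. GAANNTTC or TTCNNGAA is in 11.6% of windows. HSPB1 has GAAGGTTC 182 to 175 bases before the start, HSPB8 has GAATATTC 88 to 81 bases before it, and HSPA6 has GAACCTTC at 180 to 173 and the overlapping TTCGCGAA and GAAAGTTC at 74 to 67 and 69 to 62. A match describes these letters only.

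Genes of the ATF4 and CHOP stress response were the list with the most members risen. Of 20 measured members 7 rose and 0 fell, where 0.968% of all measured genes rose and 1.36% fell. Of the 20 members, 17 lay above the median of all genes. Their median difference was 0.84 as deposited and 0.78 after quantile normalization, against 0.09 and 0.00 over all measured genes. The risen members were ATF3, DDIT3, TRIB3, CHAC1, STC2, VLDLR and TXNIP. This list already stood out in an earlier look at these data, so its count is no independent evidence.

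ATF4, whose product is controlled mainly at translation, was at 3843 units in the control, 3694, 2176 and 5596 units at 0, 6 and 12 h after 42 °C, and 4075, 3458 and 2569 units at 0, 6 and 12 h after 44 °C. Its value at 12 h after 42 °C was the highest of the 7 arrays, but the difference of 0.54 log2 units was short of 2-fold. DDIT3, encoding the pro-apoptotic factor CHOP, was at 181.6 units in the control, 119.0, 159.5 and 498.1 after 42 °C, and 125.4, 112.2 and 115.2 after 44 °C. It rose 2.74-fold at 12 h after 42 °C and stood below the control on each of the other 5 arrays. TRIB3, a pseudokinase that restrains ATF4 and CHOP, was at 697.3 units in the control, 498.9, 958.1 and 1920 after 42 °C, and 875.1, 612.3 and 512.7 after 44 °C. Its 2 probe sets were 1.46 and 2.03 log2 units higher.

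CHAC1 encodes an enzyme that degrades glutathione. It was at 99.5 units in the control, at 50.0, 3.61 and 310.4 units after 42 °C and at 46.7 and 28.6 units at 0 and 12 h after 44 °C, with the 6 h value between them below the floor. Thus the 42 °C, 12 h array was 3.12-fold above the control, and the array 6 h earlier was below the floor. STC2, a secreted glycoprotein induced in stressed cells, was at 137.6 units in the control, 197.9, 109.7 and 482.8 after 42 °C, and 150.1, 92.1 and 96.2 after 44 °C, a rise of 3.51-fold at 12 h after 42 °C. Its other probe set was 0.96 log2 units higher as deposited and 0.81 after quantile normalization, short of the rule. VLDLR, a lipoprotein receptor, rose from 37.9 to 101.1 units.

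ATF3 followed another order. This stress-induced repressor was at 76.6 units in the control, 218.6, 54.4 and 243.3 units after 42 °C, and 334.3, 581.6 and 745.5 units after 44 °C. It rose 3.18-fold at 12 h after 42 °C after standing below the control at 6 h, and all 3 arrays at 44 °C were higher still. Its probe sets differ: the other set above the floor went from 36.7 to 64.2 units (0.81 log2 units), and the mean over probe sets, at 0.83, was short of 2-fold. TXNIP, which binds thioredoxin and limits glucose uptake, was at 949.4 units in the control, 2196, 3434 and 2391 after 42 °C and 1312, 1197 and 1501 after 44 °C. Its value at 12 h after 42 °C was lower than at 6 h but 2.52-fold over the control. The other TXNIP probe sets were 1.05 and 0.75 higher as deposited, and 0.86 and 0.54 after quantile normalization, so neither passed the rule.

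Members that did not pass the rule mostly lay on the same side. DDIT4, an inhibitor of mTOR, was at 2875 units in the control and 5626 at 12 h, and SESN2, a leucine sensor that also restrains mTOR, at 116.6 and 227.8, each 0.97 log2 units higher. JDP2, an AP-1 repressor, was 1.03 higher as deposited and 0.84 after quantile normalization. CEBPB was 0.71 higher, and PPP1R15A, which directs dephosphorylation of the initiation factor eIF2 alpha, 0.62. NUPR1, below the floor after heat, was the lowest member at -0.35, and FGF21 was below the floor on both arrays.

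**Figure D2:**
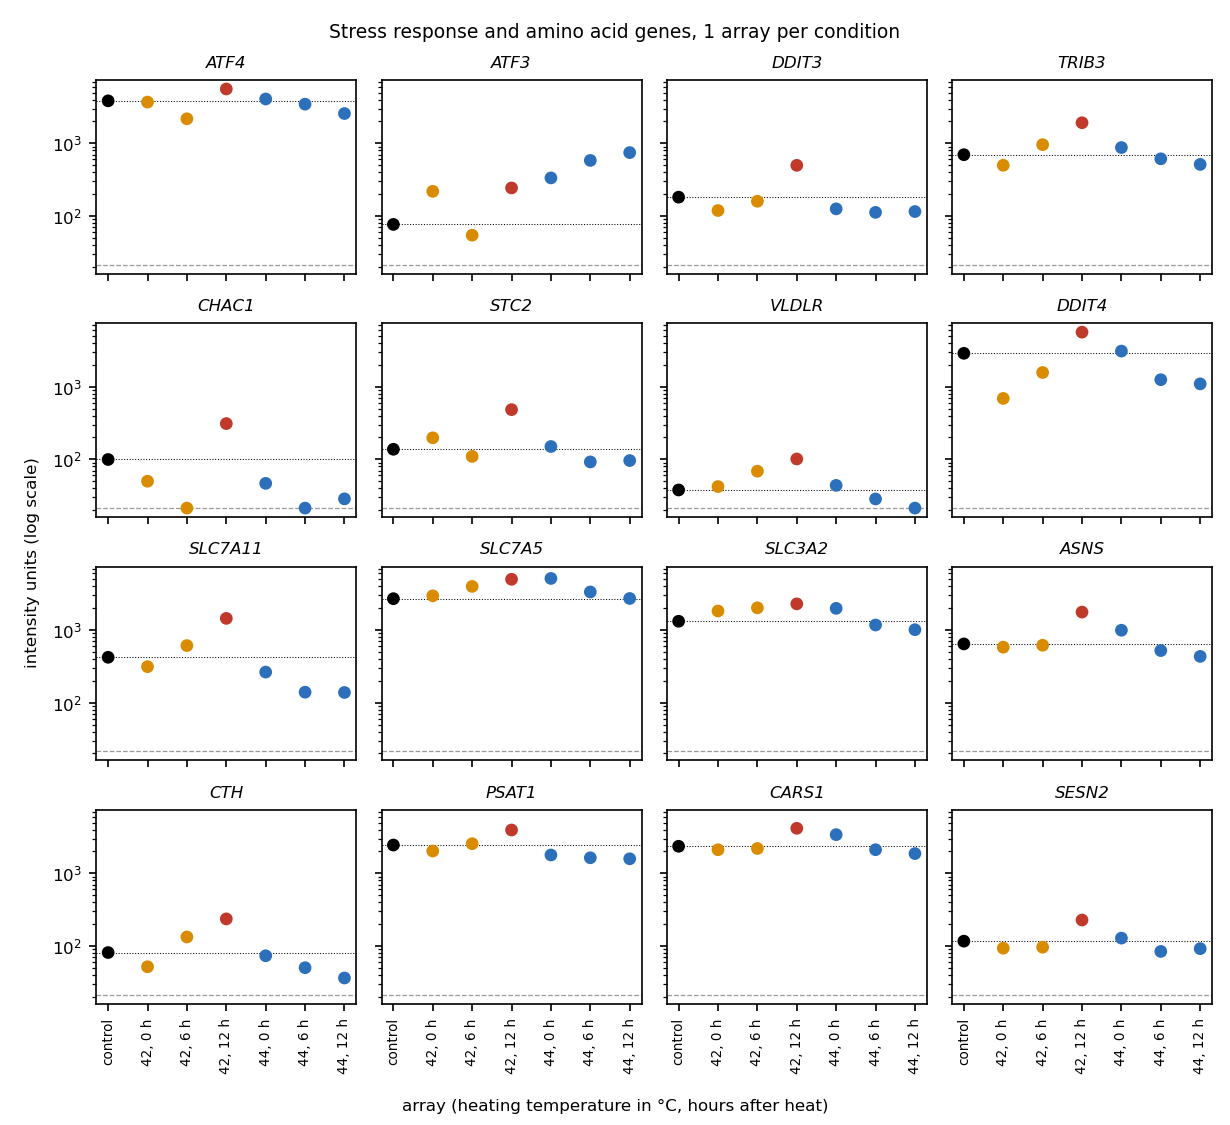
Intensity (log scale) of 16 stress response and amino acid genes on the 7 arrays, 1 point an array: control black, 42 °C at 0 and 6 h orange, 42 °C at 12 h red, 44 °C blue; the dotted line is the control and the dashed line the floor, to which lower values were raised. In DDIT3, CHAC1, STC2 and SLC7A11 the red point stands alone above the others, while in ATF3 the 44 °C points are higher.

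Amino acid uptake genes showed 1 risen gene among 12 measured transporters and 0 fallen, against 0.968% and 1.36% of all measured genes. SLC7A11, the cystine importer of system xc-, was at 421.1 units in the control, 312.9, 610.0 and 1444 after 42 °C, and 263.6, 139.3 and 138.1 after 44 °C. It rose 3.43-fold at 12 h after 42 °C, and its 3 probe sets were 1.25, 1.84 and 1.78 log2 units higher. Its heavy chain SLC3A2 was at 1319 and then 2289 units (0.80), and SLC7A5, which pairs with the same chain to import leucine, at 2696 and 4984 (0.89). The neutral amino acid carriers SLC1A4, SLC1A5 and SLC38A2 were 0.76, 0.72 and 0.53 higher. SLC7A6 was 0.33 lower. The median of the list was 0.49 as deposited and 0.44 after quantile normalization.

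In serine, asparagine, proline and folate metabolism 2 of 15 measured genes rose and 1 fell, against 0.968% and 1.36% of all measured genes. The list median was 0.35 as deposited and 0.13 after quantile normalization, where 9 of 15 lay above the all-gene median. ASNS, asparagine synthetase, was at 643.1 units in the control, 580.2, 616.8 and 1764 units after 42 °C, and 992.4, 521.0 and 433.4 after 44 °C. It rose 2.74-fold, with the value 6 h earlier slightly under the control. Its other probe set was below the floor on both arrays, so the mean of its probe sets, at 0.73 log2 units, was short of 2-fold. CTH, which makes cysteine from cystathionine, was at 81.3 units in the control, 51.8, 133.2 and 236.0 after 42 °C, and 73.4, 50.3 and 36.3 after 44 °C; its 2 probe sets were 1.54 and 1.02 higher. PSAT1 of the serine pathway was at 2450 and 3944 units (0.69), PHGDH, the first enzyme of that pathway, at 640.1 and 686.8 (0.10), and the mitochondrial folate enzyme MTHFD2 0.52 higher. GPT, alanine aminotransferase, was at 107.1 units in the control, 27.2, 17.5 and 12.4 after 42 °C, and 91.6, 53.7 and 32.6 after 44 °C, and fell at least 5.01-fold. MTHFD1, the cytosolic folate enzyme, was at 4741 and 2758 units, 0.78 lower as deposited and 1.03 lower after quantile normalization.

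None of the 17 measured cytosolic tRNA synthetases passed the rule, and all 17 had positive differences as deposited, from 0.06 (VARS1) to 0.82 (CARS1), with a median of 0.39. After quantile normalization the median was 0.18, and 12 of 17 lay above the all-gene median. CARS1, which charges tRNA with cysteine, was at 2356 units in the control and 4163 at 12 h, SARS1 at 1769 and 2845, and YARS1 at 1535 and 2458. YARS2, the mitochondrial tyrosine enzyme and no member of that list, rose from 982.1 to 2322 units. Over the stress response, transporter and synthesis lists together 10 of 47 measured genes rose, 21.3% against 0.968% of all measured genes. Of these 10, 8 had their highest value of the 7 arrays at 12 h after 42 °C, TXNIP and ATF3 being the others. All 10 were called for high values on that array, so a peak there is partly built in and is no independent evidence.

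Among the cytosolic chaperone lists, HSPB1 was the 1 risen gene. HSPB1, the small heat shock protein HSP27, was at 1116 units in the control, 7209, 7115 and 6176 units at 0, 6 and 12 h after 42 °C, and 2664, 2052 and 3139 after 44 °C. It rose 5.53-fold, the largest rise under the naming rule, and its 3 values after 42 °C lay close together above all 3 values after 44 °C. HSPA6, the strictly inducible HSP70, was at 4.82 units in the control, 12566, 262.0 and 18.9 units after 42 °C, and 5143, 7596 and 8788 after 44 °C. Both arrays compared here were below the floor for it, so no fold is given; its other probe set read 25.1 and 35.1 units. HSPB8, which works with BAG3 in selective autophagy, was at 80.8 units in the control, 513.0, 491.4 and 96.3 after 42 °C, and 116.7, 117.9 and 313.7 after 44 °C, a difference of 0.25 at 12 h after 42 °C.

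DNAJB1, the HSP40 partner of HSP70, was at 881.5 units in the control, 9949, 1354 and 1299 units after 42 °C, and 7110, 7004 and 6989 after 44 °C. At 12 h after 42 °C it was 0.56 higher than the control, and the 44 °C arrays were all far above it. BAG3, an HSP70 cochaperone, was at 1816, 7118, 5070 and 1864 units in the control and at 0, 6 and 12 h after 42 °C, and HSPH1, the HSP110 nucleotide exchange factor, at 4976, 10751, 11590 and 5402. The differences at 12 h were 0.04 for BAG3 and 0.12 for HSPH1 as deposited, and -0.21 and -0.06 after quantile normalization; the other HSPH1 probe sets were 0.23 and 0.44 higher as deposited. CRYAB, alpha B-crystallin, was at 28.6 and 51.8 units (0.85).

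By list, 0 of 8 HSP70 and HSP110 genes, 0 of 9 HSP40 genes, 0 of 12 HSP90 genes and cochaperones, 0 of 7 TRiC chaperonin subunits and 0 of 11 mitochondrial chaperones and proteases rose or fell. Their medians were 0.23, 0.33, 0.15, 0.18 and 0.24 as deposited, near the bright-gene median of 0.22. Over all measured genes 2.33% rose or fell, so 0 calls in lists this short do not set them apart from other genes. HSPA2 was the lowest of the HSP70 list, at 497.0 and 339.4 units. FKBP4, an HSP90 cochaperone, was at 1133 units in the control, 3135, 3135 and 2421 after 42 °C; its difference at 12 h was 1.10 as deposited and 0.92 after quantile normalization. SERPINH1, the collagen chaperone HSP47 of the endoplasmic reticulum, was outside these lists; it was at 949.2 units in the control, 3779, 3448 and 2182 after 42 °C, and 1685, 1169 and 1122 after 44 °C, and rose 2.30-fold. HSF1 and its regulator HSBP1, the 2 measured genes of the heat shock factor list, were 0.16 and 0.63 higher, and neither passed the rule.

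None of 19 unfolded protein response genes, 27 proteasome subunits or 12 polyubiquitin and autophagy genes passed, against 2.33% of all measured genes. HERPUD1, a factor in endoplasmic reticulum degradation, was at 742.5 units in the control, 2728, 497.5 and 1475 after 42 °C, and 678.9, 896.5 and 957.9 after 44 °C; its difference at 12 h was 0.99. XBP1 was at 1398 and 2464 units, while HSPA5, the luminal chaperone BiP, was at 8410 and 7758. Proteasome subunits lay in a narrow range, from -0.10 (PSMC3) to 0.54 (PSMC4), with a median of 0.24 as deposited and 0.06 after quantile normalization.

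**Figure D3:**
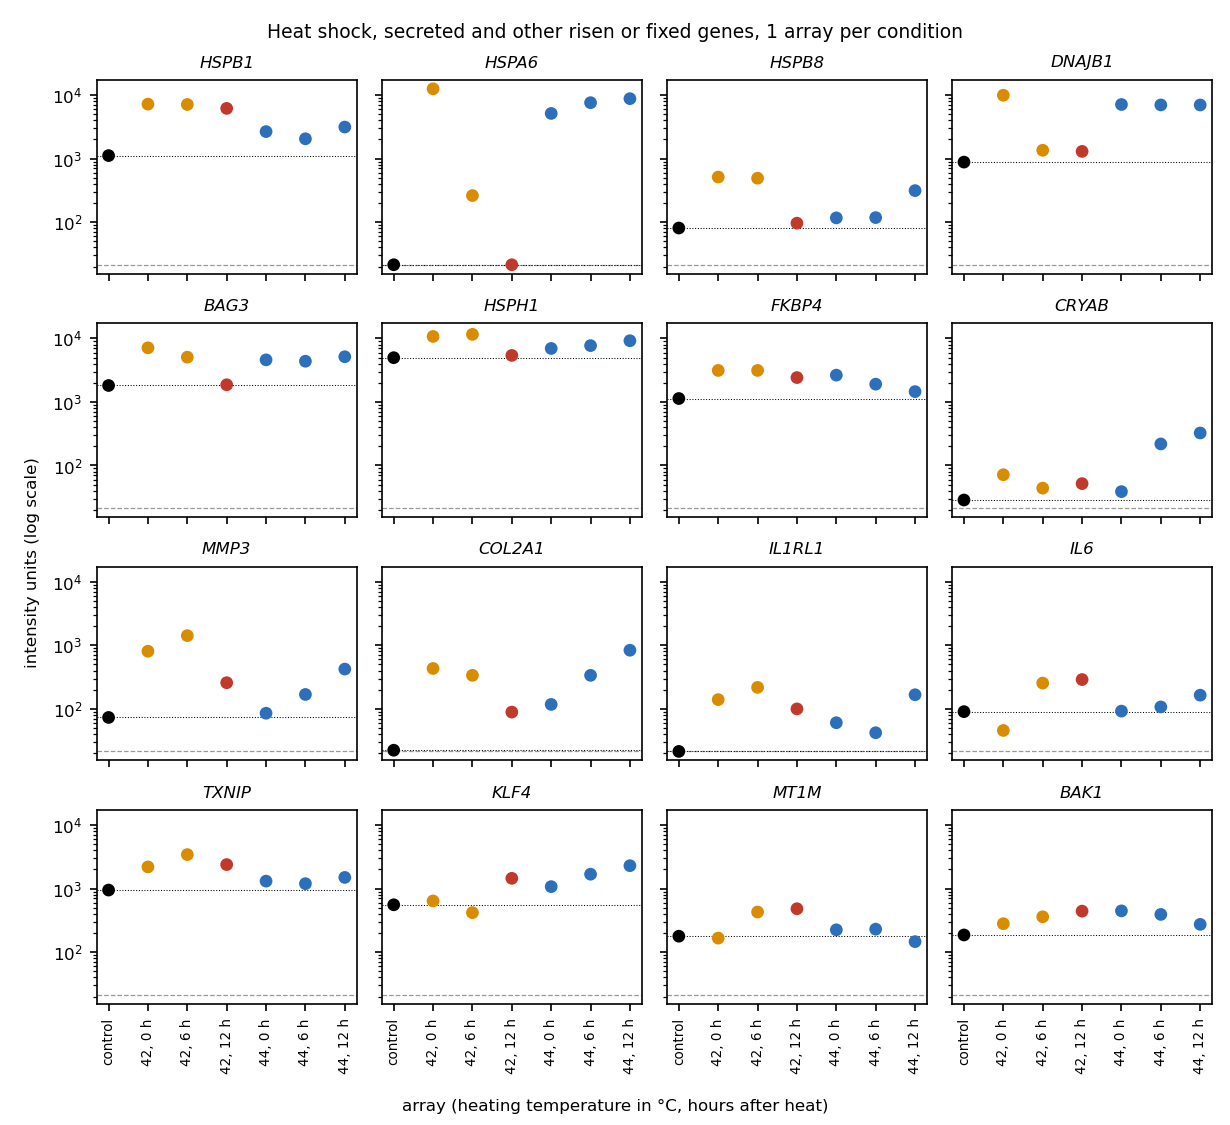
Intensity (log scale) of 8 heat shock genes and 8 others on the 7 arrays, colours and lines as in the plot of stress response genes. HSPA6, HSPB8, DNAJB1 and BAG3 are high at 0 h after 42 °C and near the control at 12 h (HSPA6 under the floor), whereas HSPB1, at 7209, 7115 and 6176 units, is high at all 3 times.

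The matrix protease, ADAMTS and collagen lists each had 1 risen member. MMP3, stromelysin, was at 73.1 units in the control, 806.2, 1419 and 257.6 units after 42 °C, and 85.2, 168.2 and 422.1 after 44 °C. It rose 3.53-fold at 12 h after 42 °C, where its value was the lowest of the 3 arrays at that temperature. COL2A1, a fibrillar collagen of cartilage, was at 22.3 units in the control, 431.7, 336.7 and 88.8 after 42 °C, and 117.3, 336.5 and 835.7 after 44 °C. It rose 3.98-fold from a control value close to the floor, and its second probe set went from 3.10 to 40.2 units.

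In the matrix protease list 1 of 17 measured genes rose and 1 fell, against 0.968% and 1.36% of all measured genes. MMP11 fell at least 2.28-fold, from 48.6 to 20.1 units, but not at a doubled floor, nor with an offset in its place or with the mean of its probe sets. MMP9, gelatinase B, was at 465.6 and 256.8 units, 0.86 lower as deposited and 1.05 after quantile normalization, and MMP1, collagenase, at 3519 and 2585. PLAT, tissue plasminogen activator, was 0.99 higher. Of 9 ADAMTS genes, ADAMTS13, which cleaves von Willebrand factor, fell at least 5.17-fold from 110.4 to 4.11 units, and ADAMTS10 rose at least 2.91-fold from 7.10 to 62.2, a call that ends with a doubled floor (0.54); its other probe set was below the floor on both arrays. Among 9 collagens COL2A1 was the 1 risen gene, and COL1A1 was at 139.3 and 222.4 units.

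IL6, a cytokine of the acute phase, was at 90.2 units in the control, 45.6, 253.8 and 288.8 units after 42 °C, and 92.0, 107.1 and 164.0 after 44 °C. It rose 3.20-fold at 12 h after 42 °C, its highest value of the 7 arrays. It was the 1 risen gene among 14 chemokines and cytokines of the NF-kB list, whose median was -0.21 as deposited and -0.15 after quantile normalization. Measured from the all-gene median, the list was at -0.30, but at -0.02 with a doubled floor and at -0.10 with the mean of probe sets. CXCL3, a neutrophil chemokine, was at 177.1 and 104.8 units (-0.76), CXCL2 at 744.7 and 600.6 (-0.31), and CXCL8 at 4439 and 5193 (0.23). IL1RL1, the receptor for interleukin-33, did not reach the floor in the control array, and was at 139.6, 217.3 and 99.7 after 42 °C, and 60.4, 42.0 and 166.5 after 44 °C, and rose at least 4.67-fold. The other IL1RL1 probe sets above the floor were slightly lower, at -0.28 and -0.10, so this rise rests on 1 probe set. IL1A, at 2859 and 4910 units, was 0.78 higher, and its receptor antagonist IL1RN 0.81 higher. None of 15 NF-kB subunit and feedback genes and none of 13 interferon response genes passed; NFKBIA, the inhibitor of NF-kB, was at 2341 and 2026 units.

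Cell death genes showed 1 change each way among 10 pro-apoptotic BCL2 family members and 0 among 9 anti-apoptotic genes. Over all measured genes 0.968% rose and 1.36% fell, and counts this small do not set these lists apart. The list medians were 0.34 and 0.31 as deposited. BAK1, a pore-forming effector of the mitochondrial outer membrane, was at 186.4 units in the control, 280.5, 360.4 and 442.3 after 42 °C, and 446.2, 392.6 and 273.7 after 44 °C, and rose 2.37-fold. BMF, a BH3-only activator of apoptosis, fell at least 2.31-fold, from 49.3 units to below the floor, and it was short of 2-fold at a doubled floor. BAX, the partner effector, was at 188.1 and 145.8 units, PMAIP1 (NOXA) at 635.6 and 999.4, and BCL2L1, which encodes the inhibitor BCL-XL, at 279.1 and 516.3 (0.89). None of 16 p53 targets passed; CDKN1A, the CDK inhibitor p21, was at 488.7 and 603.6 units.

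Of 23 immediate early genes, KLF4 and KLF2 rose, against 0.968% of all measured genes. KLF4, a transcription factor of epithelial differentiation, was at 556.5 units in the control, 639.3, 418.5 and 1453 after 42 °C, and 1075, 1687 and 2296 after 44 °C, and its 2 probe sets were 1.38 and 1.85 higher. KLF2 rose at least 2.75-fold, from 19.6 to 58.8 units, a call that a doubled floor or the mean of its probe sets ends. FOS, at 3.86 and 13.3 units, and FOSB were below the floor on both arrays, while FOS was at 803.9 units on the 44 °C, 12 h array. EGR1 was at 747.5 and 554.5 units. Of 5 genes for TXNIP and its arrestin-domain relatives, TXNIP and ARRDC3 rose; ARRDC3, an adaptor for receptor ubiquitination, was at 55.5 units in the control, 29.3, 252.7 and 138.4 after 42 °C.

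Among metallothioneins, which bind zinc and copper, all 7 measured genes had positive differences, from 0.34 (MT2A) to 1.44 (MT1M), under a list median of 0.51 as deposited and 0.36 after quantile normalization. MT1M was at 178.3 units in the control, 166.4, 428.3 and 482.1 after 42 °C, and 224.6, 230.2 and 146.4 after 44 °C, and rose 2.70-fold. Metallothionein probe sets can share sequence between family members, so the genes may not be separate. None of 15 NRF2 genes passed. NFE2L2, which encodes NRF2, was at 2004 and 3419 units (0.77), and GCLC, a glutathione synthesis enzyme, at 950.1 and 1387. AKR1C2, a steroid-reducing enzyme outside the list, fell 2.54-fold from 990.9 to 390.4 units, and the list member AKR1C1, close to it in sequence, was at 1361 and 726.3 (-0.91). The AKR1C2 probe set may match other sequences, so these readings may not be separate.

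Epithelial identity genes changed little. KRT7, a simple-epithelial keratin, was the 1 risen gene of 9 measured keratins, at 35.1 units in the control, 65.5, 91.1 and 87.0 after 42 °C; the mean of its probe sets was short of 2-fold. KRT80, a keratin outside the list, rose 3.36-fold from 79.7 to 267.7 units. None of 11 squamous differentiation genes, 8 hemidesmosome and laminin-332 genes, 10 epithelial-mesenchymal genes or 6 EGF receptor genes passed. The EGF receptor list was shifted upward, however, with a median of 0.53 as deposited and 0.33 after quantile normalization. Of its 6 genes, 5 lay above the all-gene median. SPRR1A, a cornified envelope precursor, was at 180.8 and 106.5 units (-0.76), CDH1, E-cadherin, at 1804 and 1538, and HBEGF, an EGF receptor ligand, at 1496 and 2796 (0.90).

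Cell cycle lists had no member past the rule, but their members lay on different sides. All 24 mitosis genes had positive differences as deposited, from 0.01 (BUB1B) to 1.14 (HMMR), with a median of 0.50; after quantile normalization the median was 0.29 and 18 of 24 lay above the all-gene median of 0.00, so the sign of the lowest members turned with the scaling. HMMR, a spindle-associated hyaluronan receptor, was at 1693 units in the control, 1473, 1793 and 3732 after 42 °C, and 2464, 1916 and 1259 after 44 °C, with a difference of 1.14 as deposited and 0.97 after quantile normalization. CDC20, an activator of the anaphase-promoting complex, was at 2806 and 4644 units, KIF20A, a cytokinesis kinesin, at 1003 and 1626, and CCNB1, cyclin B1, at 5401 and 7938. The 22 DNA replication genes had a median of -0.03 as deposited and -0.27 after quantile normalization. FEN1, the flap endonuclease of lagging-strand synthesis, was at 2577 and 1485 units (-0.80, and -1.09 after quantile normalization), RRM2, a ribonucleotide reductase subunit, at 7337 and 5390, and CDC45, a helicase component, at 1369 and 1093. MCM7, at 1172 and 1426, was the highest member at 0.28.

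The 9 homologous recombination genes had a median of -0.12 as deposited and -0.30 after quantile normalization, with XRCC2 at 131.4 and 78.8 units (-0.74) and EXO1 at 627.8 and 464.5 (-0.43). The 15 G1 genes had medians of -0.03 and -0.26, and CCNE2, cyclin E2, was at 867.6 and 543.9 units (-0.67). E2F8, a repressor of the E2F programme outside the lists, fell 2.04-fold, from 482.6 to 236.7 units, and KIFC1, a mitotic kinesin also outside them, fell 2.54-fold, from 581.0 to 228.3. Both were as low on other arrays: E2F8 was at 163.8 units at 0 h after 42 °C and KIFC1 at 190.2.

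**Figure D4:**
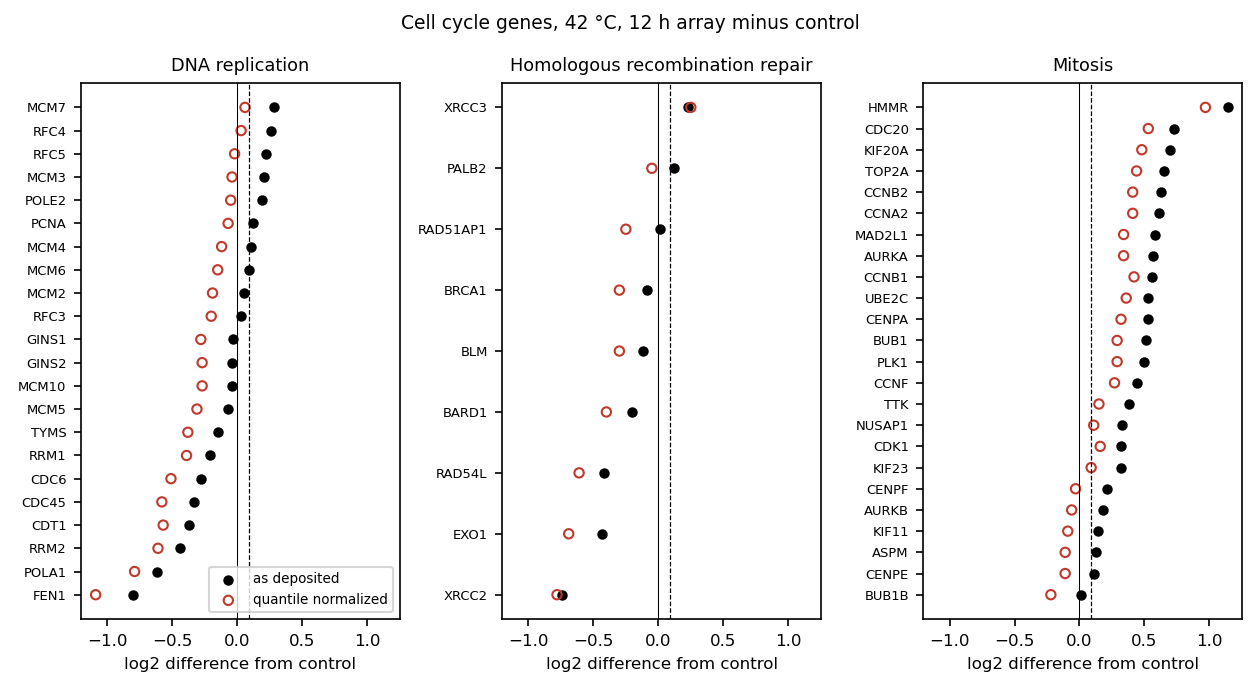
Log2 difference between the 42 °C, 12 h array and the control for each measured gene of the replication, homologous recombination and mitosis lists, as deposited (filled) and after quantile normalization (open); the dashed line is the all-gene median of 0.09 as deposited. The mitosis genes lie to the right, with a median of 0.50, and the replication genes around 0, with a median of -0.03.

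No member of the housekeeping lists passed, against 2.33% of all measured genes. The 22 ribosomal proteins ranged up to 0.29 (RPL18) with a median of 0.08, the 23 oxidative phosphorylation genes had a median of 0.23, the 14 ribosome biogenesis genes 0.19, and the 21 splicing factors and CLK kinases, which ranged from -0.66 to 0.77, had -0.01. SRSF4, a splicing factor, was at 1430 and 908.0 units (-0.66), and CLK2 at 267.9 and 456.5 (0.77). None of 11 cholesterol genes, 15 hypoxia and glycolysis genes, 12 clock genes or 11 clustered histone genes passed. VEGFA, the endothelial growth factor, was at 601.7 units in the control, 390.7, 634.8 and 1225 after 42 °C, and 574.0, 425.8 and 388.3 after 44 °C, with a difference of 1.03 as deposited and 0.82 after quantile normalization. TENT5A, a cytoplasmic poly(A) polymerase, was at 125.7 units in the control and 149.3 at 12 h, after 3362 at 0 h; 0 of 3 TENT5 genes, 0 of 4 cold-inducible genes and 0 of 3 snoRNA host genes passed.

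**Figure D5:**
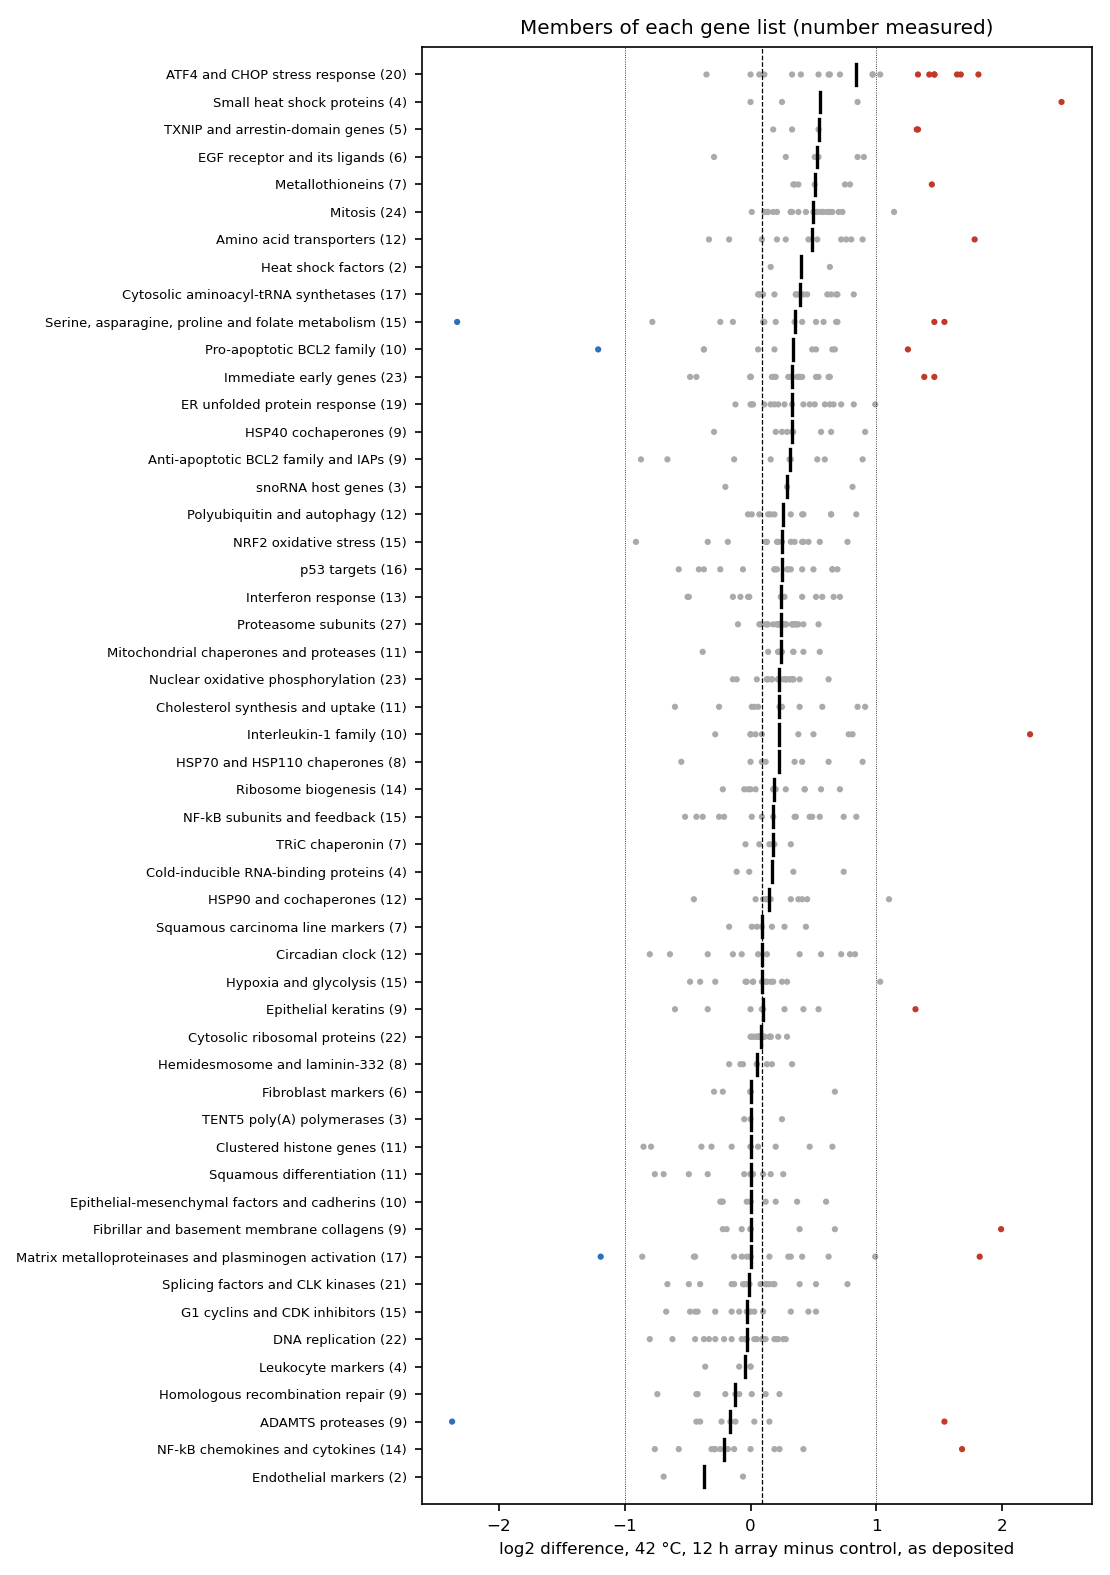
Log2 difference from the control, as deposited, of each measured member of the gene lists (grey, not past the rule; red, risen; blue, fallen), with the list median as a black bar; the dashed line is the all-gene median and the dotted lines 2-fold. The stress response list lies highest, with a median of 0.84 and 7 red points, and most other medians are between -0.2 and 0.5.

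Several of the largest rises under the naming rule were of genes outside the lists with control values near the floor. VIPR1, a receptor for vasoactive intestinal peptide, was at 26.4 units in the control, 31.5, 91.5 and 125.6 after 42 °C, and 80.0, 61.7 and 62.6 after 44 °C. IRF2BP1, a corepressor, went from 24.9 to 118.3 units, TPRG1 from 29.0 to 113.3, PPP1R1C, a phosphatase inhibitor, from 30.4 to 111.5, and the pseudogene RNF126P1 from 27.6 to 94.0. CYP1A1, a target of the aryl hydrocarbon receptor, was at 31.7 units in the control, 39.9, 77.8 and 123.2 after 42 °C, and 26.6, 10.6 and 10.1 after 44 °C; it rose 3.89-fold. LINC02806 and ARL9, below the floor in the control, rose at least 4.39-fold and at least 4.17-fold. ARL9 was already at 60.4 units at 0 h after 42 °C, while LINC02806 was below the floor there and at 6 h.

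The largest falls under the naming rule were of genes with control values between 86.5 and 188.6 units. That rule keeps only genes reaching 4 times the floor, which sets the lower end of this range. LINC00868 was at 115.0 units in the control, 31.7, 14.1 and 23.0 after 42 °C, and 109.4, 54.3 and 20.6 after 44 °C, a fall of 5.00-fold. LINC02352 fell 4.56-fold, from 188.6 to 41.3 units, and CARMIL3 and SNX8, below the floor after heat, fell at least 4.41-fold and at least 4.39-fold. FUT7, a fucosyltransferase for selectin ligands, fell from 86.5 to 22.2 units, TBX3, a T-box repressor, from 122.4 to 32.8, ZNF48 from 101.8 to 27.7 and ZNF205 from 114.3 to 32.0. MXD3, a MYC antagonist, fell from 115.1 to 32.8 units and APOE, an apolipoprotein, from 127.3 to 37.6. For ADAMTS13, GPT, LINC00868, LINC02352, CARMIL3, SNX8, FUT7, MXD3, ZNF48, ZNF205 and APOE the values at 0 and 6 h after 42 °C were also below the control, whereas TBX3 was at 222.9 units at 0 h. With the mean of each gene's probe sets, the differences of FUT7 (-0.98), LINC02352 (-0.73), TBX3 (-0.52), PPP1R1C (0.94) and ADAMTS10 (0.77) were short of 2-fold, as was FBLIM1 (0.50). The probe sets of GPT, LINC02352, SNX8, APOE, ADAMTS10, RNF126P1 and AKR1C2 end in x_at, the maker's mark for probes that may match other sequences.

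Among the 5405 genes reaching 341.7 units, 16 times the floor, on either array, 21 rose and 6 fell; 16 and 5 of these had all their probe sets above the floor on the same side. This closer view was chosen after the values were seen. Beside HSPB1, STC2, SLC7A11, TRIB3, ASNS, DDIT3, MT1M, KLF4, TXNIP, BAK1, YARS2 and SERPINH1, the risen genes were FBLIM1, PLPP5, NNMT and TSC22D3. FBLIM1, a filamin-binding adaptor of cell junctions, was at 280.0 units in the control, 354.1, 409.8 and 984.3 after 42 °C, and 833.1, 404.7 and 368.0 after 44 °C; its other 2 probe sets above the floor differed by 0.09 and 0.10. NNMT, nicotinamide N-methyltransferase, went from 180.6 to 449.4 units, PLPP5, a lipid phosphatase, from 177.6 to 451.8 with its 4 probe sets on the same side, and TSC22D3, the glucocorticoid-induced protein GILZ, from 184.4 to 420.5. Beside AKR1C2, E2F8 and KIFC1, the fallen genes were IGFBP3 and RBM14. IGFBP3, which binds insulin-like growth factors, was at 718.3 units in the control, 575.0, 462.9 and 301.2 after 42 °C, and 646.9, 591.7 and 609.9 after 44 °C; it fell 2.38-fold to its lowest value of the 7 arrays. RBM14, a coactivator and splicing regulator, was at 669.3 units in the control, 1169, 1209 and 328.1 after 42 °C, and 1353, 1007 and 963.3 after 44 °C, so 12 h after 42 °C was the 1 heated array below the control.

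Other times and temperatures share the control array with this comparison, so their differences are set side by side only. By the same rule 226 genes rose (1.51%) and 292 fell (1.95%) at 6 h after 42 °C, and 255 rose (1.7%) and 529 fell (3.53%) at 12 h after 44 °C. The stress response list had a median of -0.12, -0.04 and 0.84 at 0, 6 and 12 h after 42 °C and of 0.13, -0.30 and -0.45 at 0, 6 and 12 h after 44 °C. The HSP70 and HSP110 list had 0.61, 0.78 and 0.23, then 0.48, 0.44 and 0.51, and the mitosis list -0.37, 0.51 and 0.50, then 0.32, -0.10 and -0.54. Array level differed too: the median intensity was 32.1 units at 0 h after 44 °C and between 18.7 and 22.4 on the other 6 arrays. Probe sets that no array had below the floor differed from the control by a median of -0.13, 0.24 and 0.16 log2 units at 0, 6 and 12 h after 42 °C and of 0.40, -0.07 and -0.35 after 44 °C, and the list medians above carry these shifts.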

How the data were processed

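Total RNA of HSC-3 cells was measured on 1 array per condition; per the labels' protocols, 5 µg was turned into biotin-labelled cRNA. The authors deposited linear intensities for 54675 probe sets on 7 arrays; their summary algorithm is not given in the sources used. Precision is limited by the number of arrays. Intensities were taken as log2 after raising values below 21.35, the pooled median, to it. The array's annotation gave 41097 probe sets 1 gene, 1801 several and 11777 none. Of the single-gene probe sets, 41043 were matched by gene ID and carry the RefSeq name (GRCh38.p14, names only). Of a gene's own probe sets, that with the highest mean log2 intensity stands for it. Scripts used Python 3.11.15, numpy 2.4.6 and pandas 2.3.3 and were tested on simulated data.

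Genes past 1 log2 unit under 3 scalings (as deposited, quantile normalization, a median shift over 20902 probe sets) were called. Named were the 15 largest rises and 12 largest falls among called genes at 4 times the floor with probe sets alike, up to 5 called members per list, and 21 fixed genes, 52 in all. Other genes were chosen after seeing their values. The members and the 52 lists were chosen with earlier results of these data known. Alternatives were each scaling alone, a floor 2 times as high, an offset of 16 in place of the floor, the mean of probe sets, and bright genes alone.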

Additional observations from a re-analysis of the deposited data

Results flagged for a closer look

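SLC7A11 and CHAC1 were flagged because the 12 h arrays at the 2 temperatures moved in opposite directions from the control they share. They were not the only such genes. CTH was at 1.54 log2 units after 42 °C and -1.16 after 44 °C, and YARS2 at 1.24 and -1.27. SLC7A11, the cystine importer, was 1.78 log2 units above the control at 12 h after 42 °C and at -1.61 after 44 °C. CHAC1, which degrades glutathione, was 1.64 above it after 42 °C and at -1.80 after 44 °C. With 1 array per condition none of these differences was tested.

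Probe sets kept out of the gene counts also moved. Of 5963 measured probe sets that list no gene, 29 rose (0.486%) and 116 fell (1.95%) by the same rule. Of 1344 measured probe sets that list several genes, 15 rose (1.12%) and 17 fell (1.26%). They name no gene here.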

How the results depend on the processing

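No paired analysis was possible because each condition has 1 array and the labels give no replicate numbers; for the same reason no array could be left out. The count of 145 risen genes was 268 as deposited alone, 252 after quantile normalization alone and 204 with an offset of 16 in place of the floor. It was 67 with a doubled floor, 77 with the mean of probe sets and 81 among bright genes. Under the median shift alone, which set the limit for rises, it was 145. The count of 204 fallen genes was 325 under the median shift alone, 310 with an offset of 16 in place of the floor, 51 with a doubled floor, 99 with the mean of probe sets and 51 among bright genes. The offset kept 91 of the risen and 116 of the fallen genes, the mean of probe sets 69 and 95. The stress response list lay 0.75 above the all-gene median and 0.66 to 0.82 above it in the alternatives. Of the 52 named genes 45 were called, 32 of these stayed past 2-fold in every alternative run, and 0 changed sign; the mean of probe sets took 12 below 2-fold (ASNS to 0.73, FBLIM1 0.50, IL1RL1 0.46, ATF3 0.83), the doubled floor 4 and the offset 1. The 3 snoRNA host genes, 0.20 above the all-gene median, were at -0.01 with a doubled floor, -0.24 with the mean of probe sets and -0.14 with a filter on the mean over 7 arrays, added after seeing the data. Dim genes limit the calls: between the floor and 2 times the floor 51 of 2995 genes rose and 136 fell, against 4 and 0 of 1741 genes at 64 times the floor or more.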

Other observations

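The genes given here passed the rule outside the lists and were chosen after seeing their values. TSLP, an epithelial cytokine, rose from 40.1 to 99.0 units, and the TNF family ligands TNFSF15 and TNFSF18 from 94.2 to 251.7 and from 44.7 to 102.9. CCL26, an eosinophil chemokine, rose from 3.33 units, below the floor, to 62.6, so its fold is a lower bound set by the floor. INHBB, a subunit of activin B, rose from 53.7 to 130.5 units, and IGFBP4, which binds insulin-like growth factors, from 67.3 to 196.6. CLU, the extracellular chaperone clusterin, rose from 144.2 to 345.5 units, and AGR2, a disulfide isomerase of secretory epithelia, rose to 290.2. ADM2, a peptide of the adrenomedullin family, rose from 13.9 units, also below the floor, to 52.3. CREBRF, a regulator of the unfolded protein response factor CREB3, rose from 75.4 to 173.4 units.

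Fallen genes outside the lists included ID3, an inhibitor of basic helix-loop-helix factors, from 131.3 to 51.4 units, LAMA5, a laminin chain, from 231.3 to 92.9, and GINS4, a subunit of the replicative helicase, from 316.0 to 124.0. TNFRSF10D, a decoy receptor for TRAIL, fell from 292.9 to 139.2 units, SOCS1, a feedback inhibitor of cytokine signalling, from 57.0 to 23.1, and LGALS9, galectin-9, from 85.0 to 9.47, below the floor.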
